A study of Homo sapiens with 27 samples.

Results

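The 7 pentose phosphate pathway genes PGLS, PGD, H6PD, RPIA, RPE, TKT and TALDO1 were read from RNA-seq counts of 20268 protein-coding genes in prostate cancer cells with and without CPSF1 shRNA. They were taken by name as enzymes of the pathway, with earlier results of these data known, and all 7 passed the filter on low counts in each line. Not every enzyme of the pathway was analysed here. CPSF1 encodes a large subunit of the cleavage and polyadenylation specificity factor, the complex that recognises the poly(A) signal at the 3′ end of a pre-mRNA.

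The pentose phosphate pathway branches from glycolysis at glucose 6-phosphate. Its oxidative branch yields NADPH, which cells use for reductive synthesis and to keep glutathione reduced. Its non-oxidative branch interconverts sugar phosphates, supplies ribose 5-phosphate for nucleotides and returns carbon to glycolysis. In prostate cancer cells NADPH is also needed for the synthesis of fatty acids and cholesterol.

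LNCaP cells are an androgen-sensitive prostate cancer line from a lymph node metastasis, LNCaP95 cells are an androgen-independent derivative of it, and 22Rv1 cells come from a xenograft that relapsed after castration. Cells of each line were transduced with lentivirus for a control shRNA (CTRL sh) or for either of 2 CPSF1 hairpins, named CPSF1 sh1 and CPSF1 sh2, and 3 replicates of each of the 9 groups gave 27 libraries. All groups, controls included, carried an integrated vector and had passed puromycin selection, and were then grown for 72 h with 10% serum. The puromycin dose was 2 µg/mL for LNCaP and 22Rv1 cells. That of LNCaP95 cells is not given here and may differ. LNCaP95 cells were kept without phenol red, so line and medium cannot be told apart. The cells were selected and expanded before seeding, and nothing says that the replicates came from separate transductions, so p-values measure the spread between these cultures.

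CPSF1 mRNA was lower in every CPSF1 sh library than in any CTRL sh library of its line, with log2 fold changes of -0.65, -0.89 and -0.50 for LNCaP, LNCaP95 and 22Rv1 cells. Libraries held 8515624 to 15904518 counts, with a median of 11058723. The summed level of 7 luminal prostate markers, in CPM (read counts scaled to the total of each library), was 2786 to 5181 in all libraries, with KLK3 low in 22Rv1 cells. This sum was 4645 to 4721 with CTRL sh and 3708 to 3936 with CPSF1 sh in LNCaP cells, 5132 to 5181 and 4141 to 4319 in LNCaP95 cells, and 2892 to 2911 and 2786 to 3084 in 22Rv1 cells. The sum of 3 basal markers was 1.26 to 2.1 CPM with CTRL sh and 3.75 to 6.25 with CPSF1 sh in LNCaP cells, 1.59 to 2.90 and 2.51 to 6.08 in LNCaP95 cells, and 0 to 0.104 and 0 to 0.474 in 22Rv1 cells. KRT14 made up most of the basal sum in LNCaP and LNCaP95 cells, where KRT5 and TP63 were each at most 0.187 CPM. An endothelial marker was at most 0.0785 CPM. Of 3 leukocyte markers, summed at 0.938 to 35.1 CPM, PTPRC and CD3E were at or near 0, and CD68 made up most of the sum, which was 2.98 to 3.61 with CTRL sh and 9.96 to 17.9 with CPSF1 sh (LNCaP), 6.25 to 9.05 and 16.7 to 35.1 (LNCaP95), and 0.938 to 1.64 and 1.84 to 7.16 (22Rv1). Of 3 fibroblast markers, summed at 21.8 to 26.2 CPM with CTRL sh and 13.3 to 16.5 with CPSF1 sh (LNCaP), 54.2 to 69.5 and 43.1 to 60.2 (LNCaP95), and 11.8 to 14.2 and 11.5 to 14.2 (22Rv1), COL1A1 was detected, while COL1A2 and DCN were at 0 in LNCaP cells and at most 1.37 CPM in the other lines. The part of these markers in the changes of the pathway genes was not tested.

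Because CPSF1 acts at poly(A) signals, the 3′ ends of the 7 genes are given first. Each sequence is a 30-base window of the annotated 3′ end (GRCh37, strand of the gene), with the poly(A) hexamer in capitals.
PGLS (chr19:17632064-17632093, plus strand): ggacatccggatATTAAAaggagcgttgct
PGD (chr1:10480168-10480197, plus strand): tttcctttactcAATAAAagctacatcaga
H6PD (chr1:9331364-9331393, plus strand): atttttttaaacAATAAAattgatttgcca
RPIA (chr2:89050415-89050444, plus strand): tttgcaggtttaAATAAAacagtgtggtgc
RPE (chr2:210886259-210886288, plus strand): tttttctttaaaAATAAAtgtacagtaaaa
TKT (chr3:53258730-53258759, minus strand): ccgtctggagagAATAAAcctgtcaaagcc
TALDO1 (chr11:764981-765010, plus strand): tttgcctaatacATTAAAgcagtcactttt

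As annotated, the genes span PGLS (chr19:17622438-17632097), PGD (chr1:10458649-10480201), H6PD (chr1:9294834-9331396), RPIA (chr2:88991162-89050452), RPE (chr2:210867289-210886300), TKT (chr3:53258723-53290047) and TALDO1 (chr11:747329-765024). A hexamer lay in the last 50 bases of all 7 genes. PGD, H6PD, RPIA, RPE and TKT ended with AATAAA, the most frequent signal, and PGLS and TALDO1 with ATTAAA, the commonest variant of it. Among 20219 genes searched in the same way, 56.7% held AATAAA, 12.9% held ATTAAA without it and 30.4% held neither. The deposited gene ends were those of the counting annotation. A later annotation (GENCODE 44, same build) placed the main 3′ end of PGD 367 bases and that of RPE 684 bases farther downstream, where the hexamers ATTAAA and AATAAA stood, and moved the other 5 ends by at most 12 bases. The libraries measured reads per gene, not which poly(A) site was used.

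With CPSF1 shRNA, the 7 mRNAs did not all move in 1 direction. In LNCaP cells 3 were higher (PGLS, PGD and TALDO1) and 3 lower (H6PD, RPIA and RPE), in LNCaP95 cells 2 were higher (PGLS and PGD) and 3 lower (H6PD, RPE and TKT), and in 22Rv1 cells 0 were higher and 2 lower (H6PD and RPE). These calls came from edgeR's quasi-likelihood test of 6 CPSF1 sh against 3 CTRL sh libraries, with a Benjamini-Hochberg adjusted p below 0.05 over all genes of the line. Over all tested genes, LNCaP cells had 31.1% higher and 31% lower, LNCaP95 cells 33.2% and 33.7%, and 22Rv1 cells 12.7% and 14.3%, so the counts of the 7 genes stood near the background in LNCaP and LNCaP95 cells. The 22Rv1 background was less stable. Its 3160 called genes became 1975 to 2004 without any 1 of the CTRL sh libraries and 4586 without CPSF1 sh1 replicate 3, a library that differed more from its replicates (chi-square per degree of freedom of 6.98 and 4.37) than the other 22Rv1 replicates did from each other (1.38 to 1.92). Among the LNCaP95 CTRL sh libraries, replicates 1 and 2 stood at a chi-square per degree of freedom of 5.03, and the other pairs at 2.79 and 2.88. The 7450 called genes of LNCaP95 cells became 6576 to 6952 without any 1 of these libraries. In 22Rv1 cells the count of 0 higher was also 0 at an unadjusted p below 0.05 and 0 with DESeq2. LNCaP, LNCaP95 and 22Rv1 cells had median log2 fold changes of 0.040, -0.057 and -0.037 over the 7 genes, beside -0.00036, 0.0013 and -0.0024 over all genes. Without regard to sign, the medians were 0.29, 0.34 and 0.068 for the 7 genes and 0.22, 0.27 and 0.12 for all genes. Scaling by library size alone raised the higher share of all called genes in LNCaP95 cells from 49.6% to 62.2% and the count of higher pathway genes there from 2 to 3, with 2 lower.

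**Figure D1:**
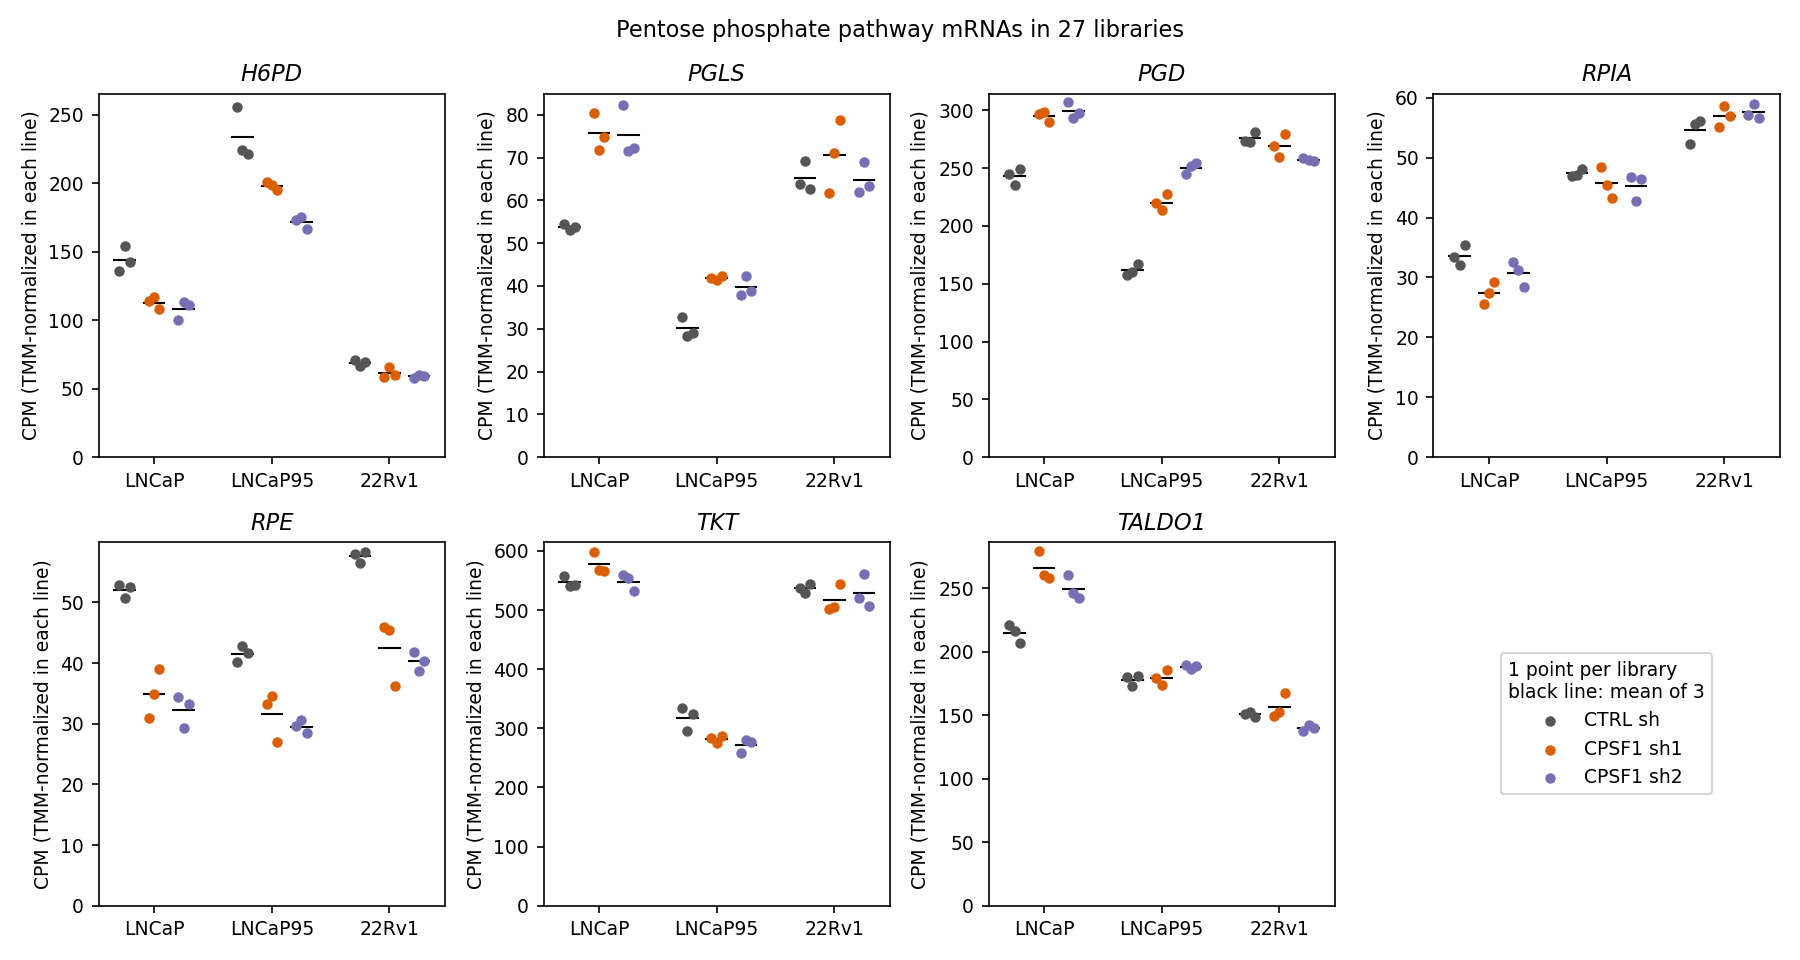
Each panel plots 1 gene, with normalised CPM on the vertical axis, 1 point for each of the 27 libraries and a black line at the mean of each group of 3. RPE and H6PD points for the CPSF1 sh libraries lie below the CTRL sh points in all 3 lines, and PGLS and PGD points lie above them in LNCaP and LNCaP95 cells.

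PGLS encodes 6-phosphogluconolactonase, which hydrolyses the lactone made in the first oxidative step. In LNCaP cells PGLS stood at 54.4, 53.2 and 53.7 CPM in the CTRL sh libraries, at 80.4, 71.8 and 74.9 with CPSF1 sh1 and at 82.3, 71.4 and 72.3 with CPSF1 sh2. The groups did not overlap, and the level was 40.2% higher with CPSF1 shRNA, a log2 fold change of 0.49 ± 0.054 (SE, adjusted p = 2.41e-06). In such bulk RNA, a change in the share of cells with an mRNA and a change in its amount per cell cannot be told apart. In LNCaP95 cells, where PGLS was lower to begin with, it stood at 32.8, 28.4 and 29.0 CPM with CTRL sh, 41.8, 41.4 and 42.5 with CPSF1 sh1 and 37.9, 42.3 and 38.9 with CPSF1 sh2. Again all 6 CPSF1 sh libraries were above the 3 controls, with a log2 fold change of 0.44 ± 0.067 (SE, adjusted p = 9.65e-05). The 22Rv1 libraries read 63.8, 69.1 and 62.7 CPM with CTRL sh, 61.8, 71.1 and 78.9 with CPSF1 sh1 and 62.0, 68.9 and 63.4 with CPSF1 sh2. Here the groups overlapped, and the log2 fold change of 0.051 ± 0.076 (SE, adjusted p = 0.650), with a 95% interval of -0.11 to 0.21, did not pass.

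PGD encodes 6-phosphogluconate dehydrogenase, which makes NADPH and ribulose 5-phosphate. In LNCaP cells PGD stood at 245, 236 and 249 CPM with CTRL sh, 297, 299 and 290.0 with CPSF1 sh1 and 307, 293 and 298 with CPSF1 sh2. The groups did not overlap, and the rise of 22.3% corresponded to a log2 fold change of 0.29 ± 0.033 (SE, adjusted p = 2.54e-06). LNCaP95 cells had the larger rise. PGD read 158, 160.4 and 167 CPM with CTRL sh, 220.0, 213 and 227 with CPSF1 sh1 and 245, 252 and 254 with CPSF1 sh2 there, so that each group of 3 stood apart from the other two. The pooled log2 fold change in LNCaP95 cells was 0.54 ± 0.062 (SE, adjusted p = 9.11e-06), 45.4% above the controls. In 22Rv1 cells PGD was at 274, 273 and 281 CPM with CTRL sh, 269, 259.6 and 279.9 with CPSF1 sh1 and 258, 257 and 256 with CPSF1 sh2. Of the 6 CPSF1 sh libraries 5 lay below all controls, and the log2 fold change of -0.068 ± 0.040 (SE, adjusted p = 0.229) did not pass. PGD was called without CPSF1 sh1 replicate 3 (-0.086, adjusted p = 0.0471) and in a fit of CPSF1 sh2 alone against CTRL sh (-0.10, adjusted p = 0.00924). In 1 fit over the 3 groups of the line, CPSF1 sh2 was at -0.10 (adjusted p = 0.0516) and did not pass.

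PGLS and PGD were thus higher in both LNCaP and LNCaP95 cells, as were 17.1% of the 10317 genes tested in all 3 lines. Among the genes of each line, the share with all CPSF1 sh libraries above all CTRL sh libraries was 27.9% (LNCaP), 29.8% (LNCaP95) and 13% (22Rv1). The pathway genes gave 3, 2 and 0 of 7 by this count, with TALDO1 as the third in LNCaP cells.

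H6PD encodes hexose-6-phosphate dehydrogenase, which oxidises glucose 6-phosphate inside the endoplasmic reticulum and supplies NADPH there. In LNCaP cells H6PD stood at 136, 154 and 143 CPM with CTRL sh, 114, 117 and 108 with CPSF1 sh1 and 99.8, 113 and 111 with CPSF1 sh2. It was lower in all 6 CPSF1 sh libraries than in any control, with a log2 fold change of -0.39 ± 0.051 (SE, adjusted p = 1.21e-05), or 23.5% less. LNCaP95 cells had the highest level, at 256, 224 and 221 CPM with CTRL sh, and read 201, 199 and 195 with CPSF1 sh1 and 173, 176 and 166 with CPSF1 sh2. The 3 groups did not overlap, and the pooled log2 fold change was -0.34 ± 0.070 (SE, adjusted p = 9.06e-04). In 22Rv1 cells, which had the lowest level, H6PD stood at 70.6, 66.5 and 69.7 CPM with CTRL sh, 58.8, 65.7 and 59.7 with CPSF1 sh1 and 57.5, 60.3 and 58.9 with CPSF1 sh2. All 6 CPSF1 sh libraries were below the controls, CPSF1 sh1 replicate 2 by the smallest margin, with a log2 fold change of -0.20 ± 0.053 (SE, adjusted p = 0.0135). This call was lost without CTRL sh replicate 1 (log2 fold change -0.18, adjusted p = 0.0773) and without CTRL sh replicate 3 (-0.19, adjusted p = 0.0623). With CPSF1 sh1 alone H6PD was at -0.16 (adjusted p = 0.110) and did not pass.

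RPIA and RPE both act on ribulose 5-phosphate. RPE encodes ribulose-5-phosphate epimerase, which makes xylulose 5-phosphate for transketolase, and it had the largest fall of the 7 genes in each line. In LNCaP cells RPE stood at 52.8, 50.7 and 52.6 CPM with CTRL sh, 30.9, 34.9 and 38.9 with CPSF1 sh1 and 34.5, 29.3 and 33.2 with CPSF1 sh2. The highest CPSF1 sh library was well below the lowest control, and RPE was 35.5% lower, a log2 fold change of -0.63 ± 0.072 (SE, adjusted p = 2.96e-06). In LNCaP95 cells RPE read 40.1, 42.8 and 41.7 CPM with CTRL sh, 33.2, 34.5 and 27.01 with CPSF1 sh1 and 29.6, 30.5 and 28.4 with CPSF1 sh2. The groups did not overlap, with a log2 fold change of -0.44 ± 0.078 (SE, adjusted p = 2.86e-04). The same held in 22Rv1 cells, where RPE went from 58.0, 56.5 and 58.4 CPM with CTRL sh to 45.9, 45.4 and 36.2 with CPSF1 sh1 and 41.8, 38.8 and 40.3 with CPSF1 sh2, a log2 fold change of -0.48 ± 0.070 (SE, adjusted p = 3.09e-04). RPE has 6 annotated pseudogene copies, and reads shared with them may have been lost or split in the counting. Its annotated span overlaps KANSL1L on the opposite strand by 154 bases, and reads were counted by strand.

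H6PD and RPE were the pathway genes lower in all 3 lines, 2 of 7, with the limits on H6PD in 22Rv1 cells given above, beside 4.9% of the 10317 genes tested in each of them. All CPSF1 sh libraries lay below all CTRL sh libraries for 27.7% of LNCaP, 30.3% of LNCaP95 and 15.2% of 22Rv1 genes, and for 2, 3 and 2 of the 7 pathway genes.

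RPIA encodes ribose-5-phosphate isomerase, which makes the ribose 5-phosphate of nucleotides. In LNCaP cells RPIA stood at 33.4, 32.2 and 35.3 CPM with CTRL sh, 25.6, 27.3 and 29.2 with CPSF1 sh1 and 32.6, 31.2 and 28.4 with CPSF1 sh2. The groups overlapped by 1 library of CPSF1 sh2, and the log2 fold change of -0.20 ± 0.073 (SE, adjusted p = 0.0240) passed. It no longer passed without CTRL sh replicate 1 (log2 fold change -0.21, adjusted p = 0.0559) or replicate 3 (-0.17, adjusted p = 0.113). In LNCaP95 cells RPIA ranged from 46.9 to 48.1 CPM with CTRL sh and from 42.7 to 48.4 with CPSF1 sh, and in 22Rv1 cells from 52.2 to 56.1 and from 55.2 to 59.1. Neither passed, with log2 fold changes of -0.057 ± 0.055 (SE, adjusted p = 0.375) and 0.069 ± 0.050 (SE, adjusted p = 0.328). RPIA and PGD each have 1 annotated pseudogene copy.

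TKT and TALDO1 encode transketolase and transaldolase, which shuttle carbon units between sugar phosphates and link the pathway back to glycolysis. In LNCaP95 cells TKT stood at 333, 296 and 324 CPM with CTRL sh, 284, 275 and 287 with CPSF1 sh1 and 258, 281 and 276 with CPSF1 sh2. All CPSF1 sh libraries were below the controls, by a log2 fold change of -0.20 ± 0.048 (SE, adjusted p = 0.00286), and library size alone gave -0.11 with an adjusted p of 0.0564. TKT was at 540.0 to 558 CPM with CTRL sh and 531 to 598 with CPSF1 sh in LNCaP cells, and at 528 to 544 and 502 to 562 in 22Rv1 cells. Neither difference passed, at 0.040 ± 0.036 (SE, adjusted p = 0.349) and -0.037 ± 0.042 (SE, adjusted p = 0.549) on the log2 scale.

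TALDO1 rose in LNCaP cells. It stood at 221, 217 and 207 CPM with CTRL sh, 279, 261 and 259 with CPSF1 sh1 and 261, 246 and 243 with CPSF1 sh2, with no overlap and a log2 fold change of 0.26 ± 0.043 (SE, adjusted p = 1.05e-04). In LNCaP95 cells TALDO1 was at 173 to 181 CPM with CTRL sh and 174 to 190.0 with CPSF1 sh, and the log2 fold change of 0.046 ± 0.043 (SE, adjusted p = 0.358) did not pass, while library size alone gave 0.13 with an adjusted p of 0.00974. In 22Rv1 cells the values were 149 to 153 and 138 to 168 CPM, with a log2 fold change of -0.025 ± 0.058 (SE, adjusted p = 0.784) that did not pass. A fit of CPSF1 sh2 alone against CTRL sh gave -0.11 (adjusted p = 0.0126). In 1 fit over the 3 groups of the line, CPSF1 sh2 was at -0.11 (adjusted p = 0.0886) and did not pass.

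**Figure D2:**
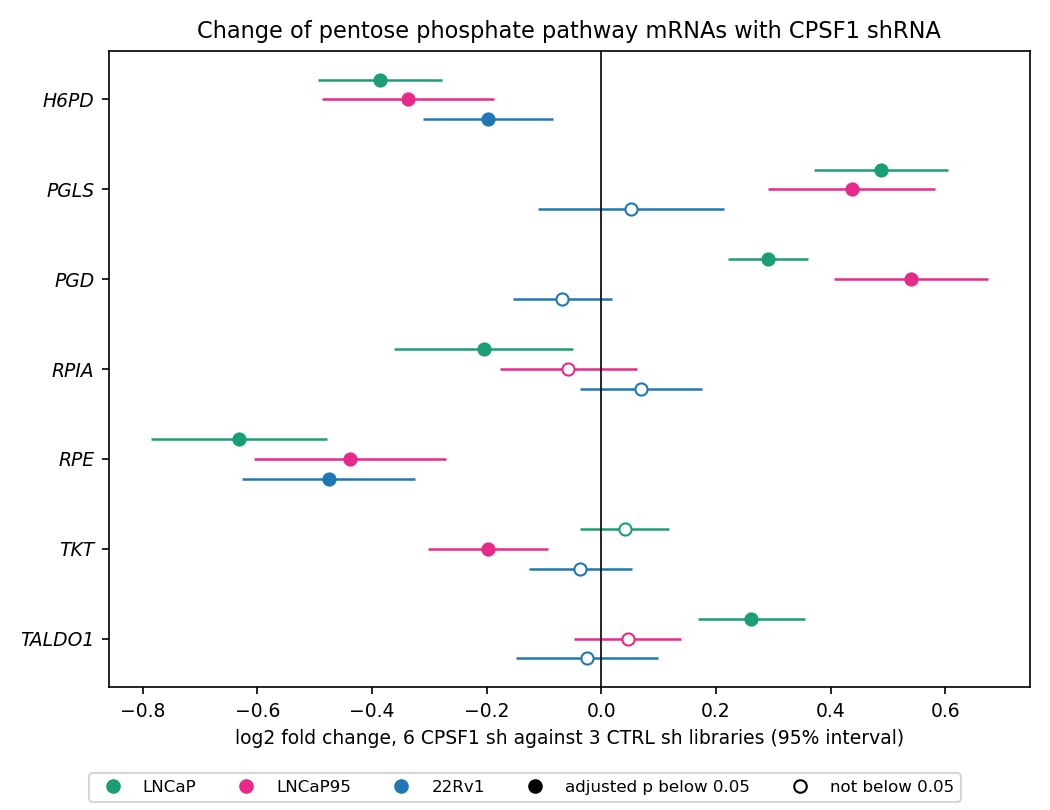
The log2 fold change of each gene with CPSF1 shRNA is on the horizontal axis, with its 95% interval from edgeR, 1 colour for each line, filled where the adjusted p was below 0.05. RPE and H6PD lie left of 0 in the 3 lines, and the 22Rv1 points of PGLS and PGD lie near 0.

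Summed over the 7 genes per kb of exon, the level was 471 ± 6.19 CPM per kb (SD, n = 3) with CTRL sh, 539 ± 14.0 with CPSF1 sh1 and 523 ± 17.1 with CPSF1 sh2 in LNCaP cells. LNCaP95 cells gave 350.0 ± 10.2, 367 ± 6.78 and 377 ± 4.38, and 22Rv1 cells 456 ± 2.35, 452 ± 20.3 and 434 ± 11.8. PGD made up 18.4% of this sum with CTRL sh, 23.9% with CPSF1 sh1 and 26.5% with CPSF1 sh2 in LNCaP95 cells, while RPE went from 4.18% to 3.03% and 2.76%. These sums are descriptions, since the genes of highest level set them.

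The hairpins were then taken 1 at a time. In LNCaP cells 6 of the 7 genes were called with CPSF1 sh1 and 5 with CPSF1 sh2, beside 62.6% and 64.6% of all genes. In LNCaP95 cells 5 were called with either hairpin, beside 66.4% and 73.4%. In 22Rv1 cells 1 was called with CPSF1 sh1 and 2 with CPSF1 sh2, beside 19.9% and 40% of all genes. These calls came from 1 fit over the 3 groups of a line. When the CPSF1 sh2 and CTRL sh libraries of 22Rv1 cells were fitted without those of CPSF1 sh1, 4 pathway genes were lower (H6PD, RPE, PGD and TALDO1), and 6050 of 11766 genes were called. CPSF1 sh1 alone gave 1 lower pathway gene and 1853 called genes. PGLS in LNCaP cells had nearly the same log2 fold change with both, 0.49 and 0.48. RPE was called each time, with -0.57 and -0.69 for LNCaP, -0.39 and -0.49 for LNCaP95, and -0.44 and -0.51 for 22Rv1 cells.

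The difference between CPSF1 sh2 and CPSF1 sh1 was tested directly. In LNCaP cells none of the 7 genes was called by edgeR, beside 14.8% of all genes (1639, or 1049 without CPSF1 sh2 replicate 2), with 3 at an unadjusted p below 0.05 (RPIA, TKT and TALDO1). RPIA passed with CPSF1 sh1 at -0.29 (adjusted p = 0.00212) and not with CPSF1 sh2 at -0.13 (adjusted p = 0.113), and the difference of 0.16 (adjusted p = 0.164) did not pass. In LNCaP95 cells 2 were called, beside 34.1%. PGD rose more with CPSF1 sh2 than with CPSF1 sh1, by 0.19 (adjusted p = 0.00144), from log2 fold changes of 0.63 and 0.45. H6PD fell more with CPSF1 sh2, with a difference of -0.21 (adjusted p = 0.00305) between -0.45 and -0.24. CPSF1 mRNA itself had the log2 fold change -0.89 with CPSF1 sh1 and -0.89 with CPSF1 sh2 in these cells, and the 95% interval of their difference was -0.17 to 0.18. In 22Rv1 cells 1 gene was called, beside 11.3%, or 1327 of all genes, a count that was 560 to 815 without CPSF1 sh1 replicate 2 or any 1 of the CPSF1 sh2 libraries and 2083 without CPSF1 sh1 replicate 1. TALDO1 was lower with CPSF1 sh2 than with CPSF1 sh1 by -0.16 (adjusted p = 0.0428), a call lost when any library other than CPSF1 sh1 replicate 1 was left out, with adjusted p of 0.0641 to 0.150. Without CPSF1 sh1 replicate 1, PGLS was also called, at -0.21 (adjusted p = 0.0374).

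**Figure D3:**
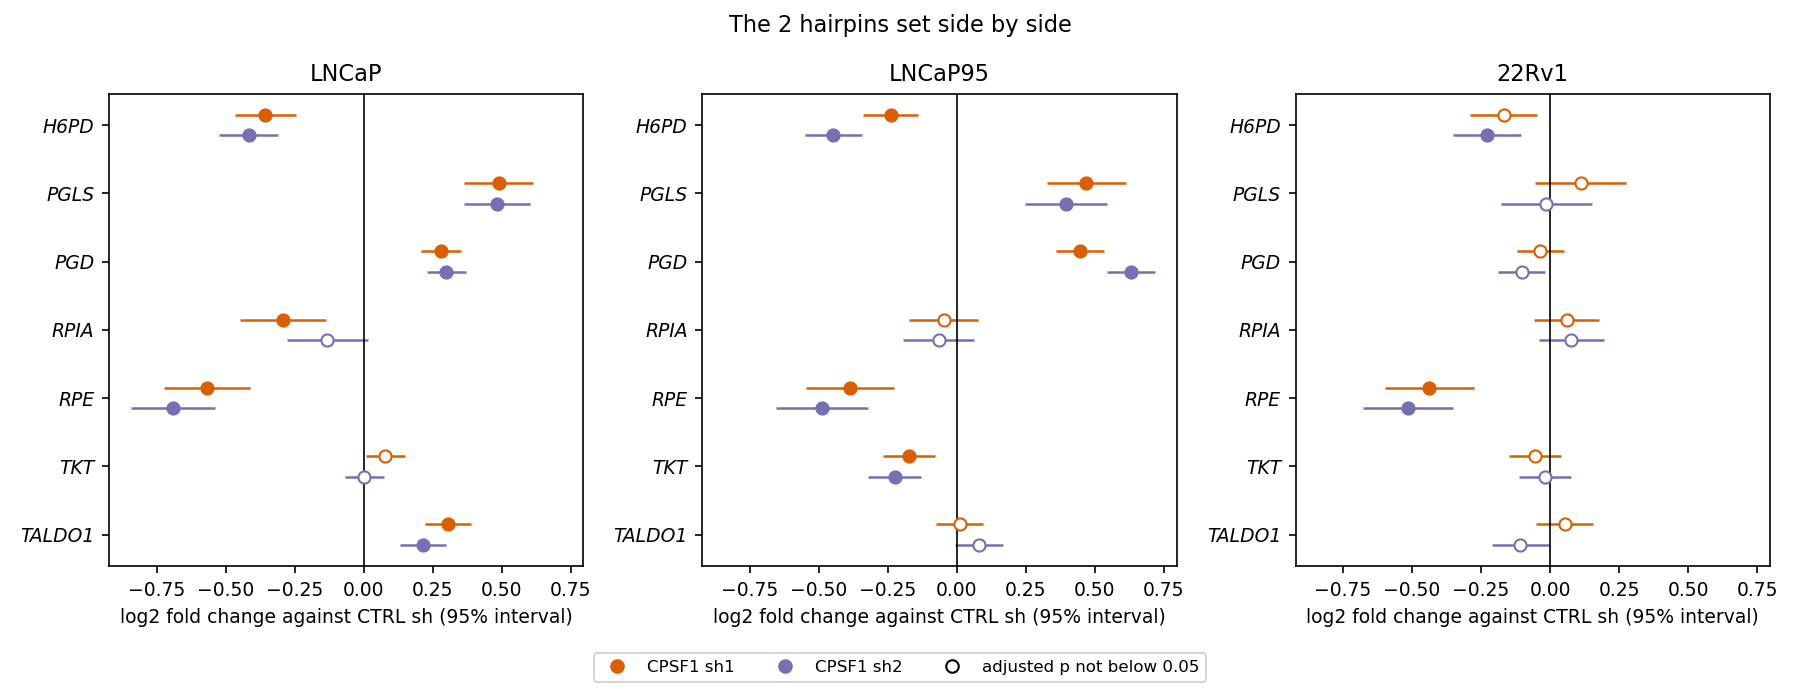
Log2 fold change against CTRL sh with 95% intervals for CPSF1 sh1 and CPSF1 sh2, 1 panel for each line, open where the adjusted p was not below 0.05. The hairpins stand apart for PGD and H6PD in LNCaP95 cells.

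Whether the response differed between lines was tested in 1 fit over the 27 libraries. LNCaP95 and LNCaP cells differed in 3 of 7 genes, beside 50.9% of all genes, 22Rv1 and LNCaP cells in 4 of 7, beside 40.4%, and 22Rv1 and LNCaP95 cells in 3 of 7, beside 53.7%. The fall of CPSF1 mRNA itself differed for 22Rv1 minus LNCaP95, by 0.39 (adjusted p = 0.00255). For LNCaP95 minus LNCaP it was at -0.22 (adjusted p = 0.0770) and for 22Rv1 minus LNCaP at 0.16 (adjusted p = 0.208). The part of the depth of knockdown in the differences between lines was not tested. PGD differed in each of the pairs. Its log2 fold change was greater in LNCaP95 than in LNCaP by 0.27 (adjusted p = 9.69e-04), and in 22Rv1 cells it differed by -0.35 (adjusted p = 9.11e-05) from LNCaP and by -0.61 (adjusted p = 7.80e-09) from LNCaP95 cells. PGLS in 22Rv1 cells differed by -0.42 (adjusted p = 6.76e-04) from LNCaP and by -0.39 (adjusted p = 0.00148) from LNCaP95 cells. Between LNCaP95 and LNCaP cells the PGLS difference was -0.034 (adjusted p = 0.798), with a 95% interval of -0.24 to 0.17.

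For RPE and H6PD no pair of lines was called. The intervals for RPE were -0.012 to 0.44 (LNCaP95 minus LNCaP), -0.052 to 0.39 (22Rv1 minus LNCaP) and -0.27 to 0.18 (22Rv1 minus LNCaP95) on the log2 scale. For H6PD they were -0.11 to 0.24, 0.014 to 0.39 and -0.049 to 0.32, in the same order. The H6PD difference between 22Rv1 and LNCaP cells, 0.20, had an unadjusted p of 0.0360 and an adjusted p of 0.0793 in edgeR's test. The LNCaP95 minus LNCaP difference of RPE passed without LNCaP CPSF1 sh1 replicate 3 (0.26, adjusted p = 0.0438) and with library size alone (0.29, adjusted p = 0.0300). RPIA differed between 22Rv1 and LNCaP cells by 0.29 (adjusted p = 0.00640). Between LNCaP95 and LNCaP cells RPIA was at 0.17 (adjusted p = 0.0939), and passed without LNCaP CPSF1 sh2 replicate 1 (0.20, adjusted p = 0.0418) and with library size alone (0.24, adjusted p = 0.0165). TKT differed between LNCaP95 and LNCaP cells by -0.22 (adjusted p = 0.00343). Its difference of 0.16 (adjusted p = 0.0316) for 22Rv1 minus LNCaP95 was lost with library size alone (0.083, adjusted p = 0.237) and without LNCaP95 CTRL sh replicate 1 (0.12, adjusted p = 0.124) and, with adjusted p of 0.0511 to 0.0755, without LNCaP95 CTRL sh replicate 3, LNCaP95 CPSF1 sh2 replicate 1, 22Rv1 CTRL sh replicate 1 or 2, or 22Rv1 CPSF1 sh2 replicate 2. TALDO1 differed by -0.20 (adjusted p = 0.0177) between LNCaP95 and LNCaP cells and by -0.27 (adjusted p = 0.00246) between 22Rv1 and LNCaP cells. The first was lost with library size alone (-0.12, adjusted p = 0.132) and without LNCaP CTRL sh replicate 3 (-0.18, adjusted p = 0.0572). Scaling by library size alone moved the higher share of called genes from 52.6% to 65.9% for LNCaP95 minus LNCaP and from 49.5% to 37.4% for 22Rv1 minus LNCaP95.

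The lines differed in these mRNAs before any knockdown. In CTRL sh libraries 7 of 7 genes differed between LNCaP95 and LNCaP cells, beside 80.5% of all genes, 6 of 7 between 22Rv1 and LNCaP cells, beside 82.7%, and 7 of 7 between 22Rv1 and LNCaP95 cells, beside 84.5%. H6PD was 1.58 times its LNCaP level in LNCaP95 cells, a log2 difference of 0.66 (adjusted p = 5.33e-11), and lower in 22Rv1 cells by log2 differences of -1.09 (adjusted p = 3.27e-14) from LNCaP and -1.75 (adjusted p = 1.07e-18) from LNCaP95 cells. PGLS, PGD, RPE and TKT were lower in LNCaP95 than in the other lines. PGLS was 2.18 times as high in 22Rv1 as in LNCaP95 cells, a log2 difference of 1.13 (adjusted p = 4.97e-14). TKT was at -0.048 (adjusted p = 0.279) between 22Rv1 and LNCaP cells and did not pass. The RPE difference between 22Rv1 and LNCaP cells, 0.13 (adjusted p = 0.0335), was lost without LNCaP CTRL sh replicate 2, without 22Rv1 CTRL sh replicate 1 or 3, and with edgeR's filterByExpr, with adjusted p of 0.0511 to 0.0773.

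Per kb of exon, TKT, TALDO1 and PGD were the genes of highest level in each line. In LNCaP cells TKT was at 142 ± 2.60 CPM per kb (SD, n = 3) and TALDO1 at 139 ± 4.52, within their spread of each other, followed by PGD at 98.6 ± 2.91 and PGLS at 47.3 ± 0.607. RPE at 18.6 ± 0.453 and RPIA at 18.5 ± 0.904 did not differ beyond their spread, and H6PD was lowest at 15.8 ± 1.01. In LNCaP95 cells the order was TALDO1 at 112 ± 2.94, TKT at 80.2 ± 5.05 and PGD at 63.9 ± 1.93. PGLS at 25.8 ± 2.09, RPIA at 25.4 ± 0.373 and H6PD at 24.9 ± 2.03 overlapped there, and RPE was lowest at 14.5 ± 0.440. In 22Rv1 cells TKT at 137 ± 1.75 was followed by PGD at 110.4 ± 1.43, TALDO1 at 96.5 ± 1.43, PGLS at 56.7 ± 3.08, RPIA at 29.7 ± 1.07, RPE at 20.4 ± 0.321 and H6PD at 7.43 ± 0.230.

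**Figure D4:**
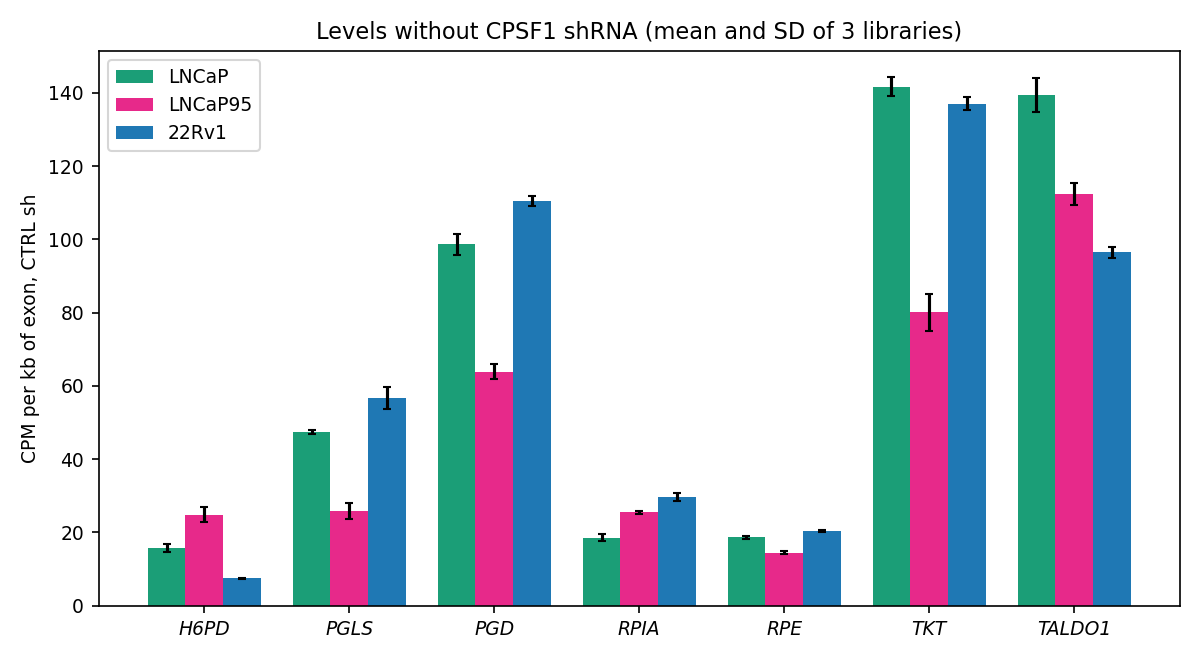
Bars give the mean level of each gene in the 3 CTRL sh libraries of a line in CPM per kb of exon, with the SD. TKT, TALDO1 and PGD have the tallest bars, and H6PD is tallest in LNCaP95 cells.

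Genes around the pathway were read from lists. Beside their counts, the shares of all tested genes higher and lower were 31.1% and 31% in LNCaP cells. They were 33.2% and 33.7% in LNCaP95 cells, and 12.7% and 14.3% in 22Rv1 cells. Of 8 genes on the ribose side, 7 were found by name among the counted genes, and 4 of these passed the filter in each line. DERA, the deoxyribose-phosphate aldolase, fell in all 3 lines, with log2 fold changes of -0.75 (adjusted p = 7.07e-07), -0.39 (adjusted p = 0.00169) and -0.66 (adjusted p = 0.00105) for LNCaP, LNCaP95 and 22Rv1 cells. RBKS, the ribokinase, rose in LNCaP at 0.34 (adjusted p = 0.0477) and in LNCaP95 cells at 0.97 (adjusted p = 4.55e-05), and stood at -0.20 (adjusted p = 0.332) in 22Rv1 cells. Counts of higher and lower genes in this list were 2 and 1 for LNCaP and 1 and 2 for LNCaP95 cells, and 1 gene was lower for 22Rv1.

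Phosphoribosyl pyrophosphate (PRPP), made from ribose 5-phosphate, feeds purine and pyrimidine synthesis and salvage. Of 8 genes for its synthesis and use, LNCaP cells had 3 higher and 2 lower, LNCaP95 cells 4 and 2, and 22Rv1 cells 1 and 2, with median log2 fold changes of 0.078, 0.15 and 0.0060. UMPS, which makes uridine monophosphate, rose in LNCaP at 0.21 (adjusted p = 4.56e-04) and LNCaP95 cells at 0.41 (adjusted p = 0.00111). It did not pass in 22Rv1 cells at 0.15 (adjusted p = 0.0806). PRPSAP1, a protein that binds PRPP synthetase, fell in LNCaP at -0.49 (adjusted p = 1.06e-07) and LNCaP95 cells at -0.34 (adjusted p = 0.00110). Its value of -0.15 (adjusted p = 0.0656) in 22Rv1 cells did not pass.

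Of 7 genes for other NADPH sources and NAD kinases, 5 passed the filter in LNCaP and LNCaP95 and 7 in 22Rv1 cells. In LNCaP cells 2 rose and 1 fell, in LNCaP95 cells 2 rose and 2 fell, and in 22Rv1 cells 2 fell. NADK, the cytosolic NAD kinase that makes NADP, rose in LNCaP at 0.23 (adjusted p = 1.23e-04) and LNCaP95 cells at 0.24 (adjusted p = 0.00153). It did not pass in 22Rv1 cells at -0.073 (adjusted p = 0.350).

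NRF2 (gene NFE2L2) is a transcription factor that is known to induce several pentose phosphate pathway genes under oxidative stress. Of 10 other NRF2 target genes, LNCaP cells had 6 higher and 2 lower, LNCaP95 cells 2 and 7, and 22Rv1 cells 1 and 4, with medians of 0.25, -0.34 and -0.048 on the log2 scale. NQO1, a quinone reductase, fell in the 3 lines, with log2 fold changes of -0.92 (adjusted p = 1.19e-09), -0.95 (adjusted p = 2.02e-07) and -0.29 (adjusted p = 0.00598) in LNCaP, LNCaP95 and 22Rv1 cells. TXNRD1, the cytosolic thioredoxin reductase, rose in LNCaP at 0.16 (adjusted p = 3.62e-04) and fell in LNCaP95 at -0.74 (adjusted p = 2.73e-08) and 22Rv1 cells at -0.32 (adjusted p = 1.08e-04). PIR (pirin) was at 0.091 (adjusted p = 0.127) in LNCaP cells and fell in LNCaP95 at -0.67 (adjusted p = 6.72e-07) and 22Rv1 cells at -0.26 (adjusted p = 0.0245). GSR, SRXN1 and GCLM, with smaller mean changes, were each higher in 2 lines. NFE2L2 itself fell in LNCaP at -0.16 (adjusted p = 0.0130) and LNCaP95 cells at -0.49 (adjusted p = 3.41e-06). In 22Rv1 cells it was at -0.13 (adjusted p = 0.102) and did not pass. KEAP1, the other listed regulator of NRF2, rose in LNCaP cells at 0.29 (adjusted p = 1.59e-05). It did not pass in LNCaP95 at 0.15 (adjusted p = 0.0723) or 22Rv1 cells at -0.0031 (adjusted p = 0.971).

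Glycolytic enzymes, on the path from which the pentose phosphate pathway branches, were mostly lower in LNCaP and LNCaP95 cells. Of 14 genes, LNCaP cells had 12 lower and 1 higher, LNCaP95 cells 14 lower and 22Rv1 cells 7 lower, with median log2 fold changes of -0.35, -0.69 and -0.12. ALDOC, the brain-type aldolase, fell in all 3 lines, at -1.79 (adjusted p = 4.76e-11), -1.82 (adjusted p = 5.40e-05) and -0.86 (adjusted p = 4.55e-04) in LNCaP, LNCaP95 and 22Rv1 cells. ENO2, the neuronal enolase, was at -2.50 (adjusted p = 9.15e-10), -1.88 (adjusted p = 5.96e-06) and -0.11 (adjusted p = 0.314). PFKP, the platelet-type phosphofructokinase, was at -1.27 (adjusted p = 4.33e-09), -0.72 (adjusted p = 7.52e-05) and 0.21 (adjusted p = 0.0675). The lists were not tested against each other.

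Promoters of the 7 genes were read from RefSeq (GRCh38.p14, 250 bases before to 50 after the start, 7 of 7 matched). The antioxidant response motif TGACNNNGC, which NRF2 binds, was searched on both strands and stood in 2 of them, PGD and RPE, beside 13.3% of 35116 promoters. The 30-base windows that hold it are shown, with the motif in capitals. Its part in the changes of PGD and RPE was not tested.
PGD (chr1:10398853-10398882, motif on the opposite strand): cctcgccgggGCAATGTCAtctaggtgctc
RPE (chr2:210002477-210002506, motif on the same strand): ggcggacggcTGACAGCGCcccaccccagg

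The hypoxia response core ACGTG stood in 1 of the 7 promoters, that of PGD, on the opposite strand, beside 21.4% of promoters. A match of letters is no evidence of binding.

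Across the 27 libraries, with the mean of each line subtracted, the normalised log2 levels of PGLS and PGD correlated at r = 0.79 and those of H6PD and RPE at r = 0.82. Across these pairs the sign turned, with r = -0.71 for PGLS and H6PD, -0.77 for PGLS and RPE, -0.78 for PGD and H6PD and -0.64 for PGD and RPE. RPIA and TKT had r = -0.073. The points share the knockdown contrast and the library scaling, so these are descriptions.

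Of 10317 genes, those most like each pathway gene over the same 27 line-centred libraries were C21orf33 (r = 0.94) and TBCD (0.93) for PGLS, and FAM136A (0.98) and PA2G4 (0.98) for PGD. For H6PD they were GEMIN8 (0.95) and SFXN3 (0.93), and for RPE they were MYO6 (0.94) and CENPC (0.93). RPIA had weaker likeness, with PDZD4 (0.77) and ANP32E (0.75). TKT was most like BAG6 (0.90) and RNF167 (0.88), and TALDO1 most like TUBB4B (0.92) and CAPNS1 (0.90).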

How the data were processed

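RNA-seq libraries were made by the authors with a stranded mRNA kit from 27 cultures. Reads were aligned to hg19 (GRCh37) with HISAT2 2.1.0 and counted by gene and strand with featureCounts of Subread (version 2.0.3 in the submitters' processing notes) against an Ensembl GRCh37 annotation, and raw counts were deposited for 20268 protein-coding genes. Counting within annotated ends misses reads beyond them. Within each line, a gene entered the test when it exceeded 2 CPM throughout the 9 libraries. The test was made with edgeR 4.0.16 (legacy quasi-likelihood test, TMM scaling, Benjamini-Hochberg adjustment over all tested genes, 0.05), with 3 CTRL sh against 6 CPSF1 sh libraries. Hairpins, differences between lines and CTRL sh levels were fitted likewise with groups as terms. The tests were run on simulated counts in which few genes changed, with the same spread in all lines. That check does not cover changes in most genes or small changes. CPM values of the pathway genes, and their sums per kb, are TMM-scaled within each line. CPM values of the cell type markers are scaled by the library total alone. CPM per kb of single genes in CTRL sh libraries are TMM-scaled within the CTRL sh libraries of all lines. The biological coefficient of variation was 4.95%, 7.09% and 6.08% in LNCaP, LNCaP95 and 22Rv1 cells.

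All pathway genes were named, and from each neighbouring list up to 3 genes called in 1 direction in at least 2 lines, by mean absolute change. GSR, SRXN1, GCLM and KEAP1 are named beyond this rule. Not every gene that this rule selects is reported here. For likeness the 2 genes of highest r were named. The members and lists were chosen with earlier results of these data known. The main fits did not pair samples by replicate number. Correlations of same-numbered deviations were -0.23 to 0.27, over 0.1 in 3, 3 and 1 of 9 pairs. Alternatives were other scalings, filters, DESeq2 1.42.0, single hairpins, a replicate block and leaving out each library. Sequences were read with pysam 0.24.0. R 4.3.3 and matplotlib 3.10.9 were used.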

Additional observations from a re-analysis of the deposited data

Results flagged for a closer look

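Among the 6 CPSF1 sh libraries of each line, 1 value stood apart by Dixon's test: H6PD in 22Rv1 CPSF1 sh1 replicate 2, at 65.7 CPM, while the other 5 were 57.5 to 60.3 CPM. Chance flags about 1 in 20 groups, and 21 were looked at.

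The effect of CPSF1 shRNA differed between lines by edgeR's test of the difference, in log2 units, as follows. LNCaP95 minus LNCaP gave 0.27 (adjusted p = 9.69e-04) for PGD, -0.22 (adjusted p = 0.00343) for TKT and -0.20 (adjusted p = 0.0177) for TALDO1. 22Rv1 minus LNCaP gave -0.42 (adjusted p = 6.76e-04) for PGLS, -0.35 (adjusted p = 9.11e-05) for PGD, 0.29 (adjusted p = 0.00640) for RPIA and -0.27 (adjusted p = 0.00246) for TALDO1. 22Rv1 minus LNCaP95 gave -0.39 (adjusted p = 0.00148) for PGLS, -0.61 (adjusted p = 7.80e-09) for PGD and 0.16 (adjusted p = 0.0316) for TKT. For PGD and PGLS each of these calls held under all alternatives run.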

How the results depend on the processing

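Of the values of single genes under alternatives, 1603 kept their direction and side of the threshold, 30 lost the call, 11 gained one and 15 turned sign, and none of those that turned was called under either setting. With library size alone, RPIA in LNCaP95 cells went to 0.030, the sh2 minus sh1 difference of PGLS in LNCaP cells to 0.0091 and the LNCaP95 minus LNCaP difference of the PGLS effect to 0.045. Without a filter TALDO1 in LNCaP95 cells was -0.0040. With CPSF1 sh1 alone TALDO1 in 22Rv1 cells was 0.061, and with CPSF1 sh2 alone PGLS there was -0.014. Left-out libraries turned the sh2 minus sh1 difference of PGLS in LNCaP cells (-0.070 to 0.036, with 0.024 and 0.034 among them), of RPIA in LNCaP95 cells (-0.048 to 0.032, with 0.030), of RPIA (-0.0053 to 0.038, with -0.0012) and TKT (-0.0090 to 0.072) in 22Rv1 cells, and the LNCaP95 minus LNCaP difference of the PGLS effect (-0.077 to 0.036). The count of lower genes in 22Rv1 cells, 2 as reported, was 1 with CPSF1 sh1 alone, 4 with CPSF1 sh2 alone (H6PD, RPE, PGD and TALDO1, in a fit without the other hairpin's libraries) and 1 to 3 with 1 library left out. RPE was lower in all 3 lines under each setting run, and PGLS and PGD were higher in LNCaP and LNCaP95 cells under each setting run.

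Correlations of same-numbered libraries were low and of both signs, so the main fits had no replicate block, and the fit with one is given only here. In LNCaP cells CPSF1 sh1 and CPSF1 sh2 correlated at 0.24, 0.025 and 0.19 for replicates 1, 2 and 3. The check did not settle whether the replicates were paired there. With the block, the count of pathway genes that differed between hairpins was 2 in LNCaP cells (TKT -0.075, adjusted p = 0.0447, and TALDO1 -0.091, adjusted p = 0.0307) in place of 0. Over all genes, 2164 differed between hairpins in LNCaP cells with the block, in place of 1639. In 22Rv1 cells the count of pathway genes was 0 in place of 1, where leaving out 1 library gave 0 to 2. The 22Rv1 minus LNCaP95 difference of TKT was lost with the block (0.16, adjusted p = 0.0507). The block changed no other call of the pathway genes. Standard errors of the pooled log2 fold changes ran from 0.033 to 0.078, which limits what was detectable.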
